A study of Mus musculus with 2 samples.

Results

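Proteasome genes were taken as the protein-coding RefSeq loci of the mouse assembly GRCm38 whose symbol begins with Psm, a letter from a to g and a digit. The rule found 51 of the 21887 protein-coding loci on the chromosomes of the list. Of the 51, 30 (58.8%) held at least 1 listed cluster of UPF1 immunoprecipitate reads on their own strand, against 45.1% of the 21887. A listed cluster is not by itself shown to be bound: 43 of the 165 in these genes did not exceed the input. The data were enhanced crosslinking and immunoprecipitation (eCLIP) of UPF1, in which RNA crosslinked to a protein is trimmed with RNase, pulled down with an antibody and sequenced beside an input library. There was 1 immunoprecipitate and 1 input, both carrying the label MOCK, whose meaning is not stated, and both from cultured neural progenitor cells of mouse cortex with the genotype Upf2fl/fl, that is, with loxP sites flanking Upf2, whose protein is a partner of UPF1. No replicate exists, so no test between conditions was possible. All errors given are counting errors, except that the interval of the median highest fold reflects the spread over genes. The input is present in the file only as the denominator of each cluster's fold and p.

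UPF1 is the core helicase of nonsense-mediated decay. It binds RNA with little sequence preference, and is known to be displaced from coding regions by ribosomes, which leaves it mostly on 3′ untranslated regions. The 26S proteasome degrades ubiquitin-tagged proteins. Its core, the 20S particle, is a barrel of alpha rings, which gate entry, around beta rings, which carry the proteolytic sites. The 19S regulatory particle caps the barrel: a ring of AAA ATPases unfolds substrates, and non-ATPase subunits of its base and lid bind ubiquitin and remove it. Chaperones assemble both particles, and the PA28 and PA200 activators and the inhibitor PI31 act on the core. Neural progenitors, like other dividing cells, rely on it to turn over cell cycle and fate regulators.

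A cluster is a stretch of RNA in which immunoprecipitate reads piled up, and the authors gave each a log2 fold of immunoprecipitate over input and a −log10 p. A cluster was called enriched at a log2 fold of at least 3 together with a −log10 p of at least 3. Of the 51 proteasome genes, 9 held an enriched cluster, which is 30% of the 30 with a cluster (Wilson 95% interval 16.7 to 47.9). The background share, over all 9864 protein-coding genes with a cluster, was 34.0%. Counted over all members whether or not they had a cluster, 17.6% were enriched, against 15.3% of all protein-coding genes. Over clusters, 23 of 165 in proteasome genes were enriched (13.9%, interval 9.47 to 20%), against 11.8% of the 120121 in protein-coding genes. All 3 shares of proteasome genes thus lay near the background. The median over genes of the highest log2 fold was 1.30 for the 30 proteasome genes (95% interval from the ranked gene values 0.98 to 2.95). For all protein-coding genes with a cluster it was 2.56, which lies inside that interval. The median number of clusters per gene was 4 and 6. These differences were not tested. With the fold threshold at 2, 10 proteasome genes were called, where the background share was 36.2%. With the fold threshold at 4 there were 8 (background 24.5%), with a −log10 p of at least 5 there were 6 (26.1%), and with no p threshold 9 (40.8%). With no call allowed on a single reconstructed input read there were 3, Psma3, Psmd11 and Psme3 (21.7%), so that the calls of Psmd3, Psmd5, Psmd7, Psmd8, Psmf1 and Psme3ip1 each rest on clusters with 1 input read.

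The 9 genes were Psmd11, Psmd3, Psmd7 and Psmd8 among the non-ATPase subunits of the regulatory particle, Psma3 in the alpha ring, the chaperone Psmd5, the activator Psme3, the inhibitor Psmf1, and Psme3ip1. The last encodes a protein that binds the Psme3 product and is not itself a subunit. Of the 49 genes for subunits, regulators and chaperones, 8 were thus enriched, 27.6% of the 29 with a cluster. This lay near the background of 34.0% and was not tested. No gene of the ATPase ring, of the beta ring or of the immune and tissue-specific core subunits had an enriched cluster. Only 4, 4 and 1 of their genes had any cluster (background 34.0% enriched). Over clusters, the highest shares that these counts of 0 allow are 15.8%, 25.0% and 100%. All lie above the background of 11.8% of clusters, so none is set apart from it.

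**Figure D1:**
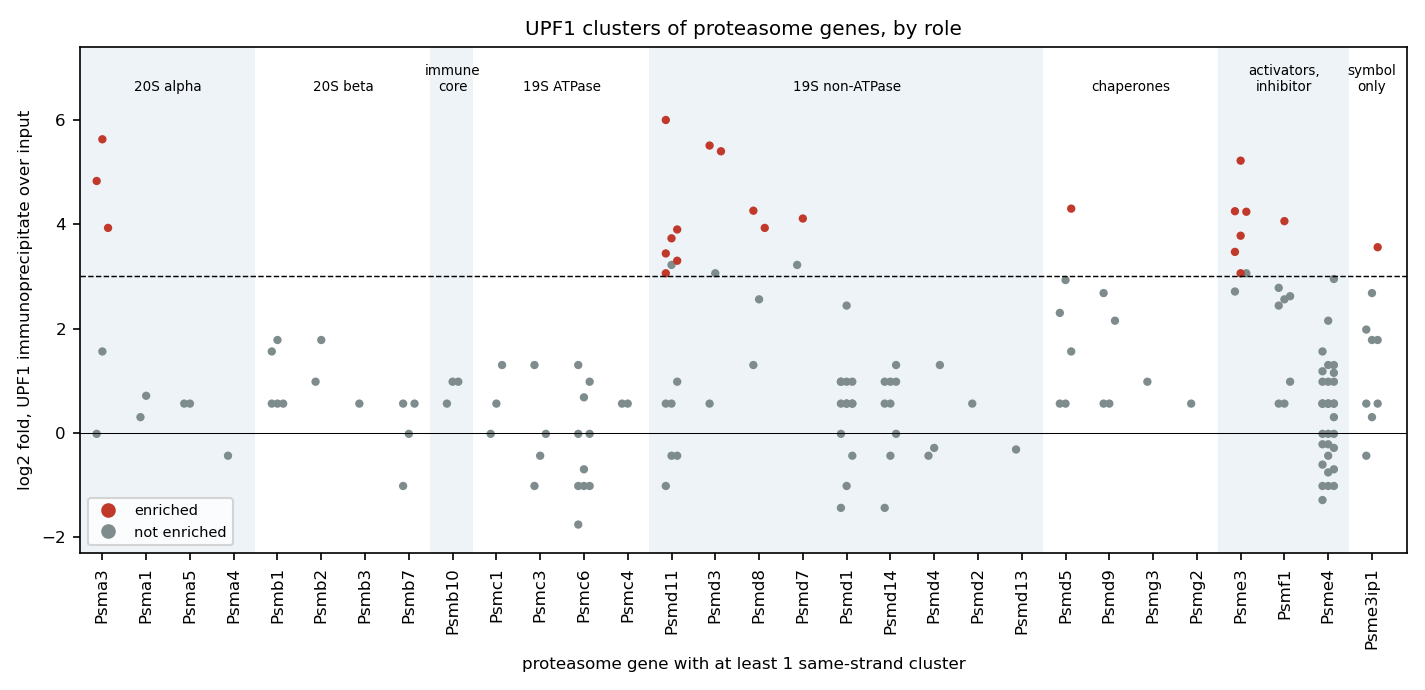
Log2 fold of the UPF1 immunoprecipitate over input (vertical axis) for each same-strand cluster of the 30 proteasome genes with a cluster, grouped by role; each point is a cluster, some overlap, red points are enriched and the dashed line marks a log2 fold of 3. Points above 3.5 are found in Psma3, 4 non-ATPase subunits, Psmd5, Psme3, Psmf1 and Psme3ip1, while all beta ring and ATPase clusters lie below 2.

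Among the alpha ring genes, UPF1 was enriched on Psma3 alone of the 4 with a cluster (25.0%, background 34.0%, not tested). The highest folds of the other 3 were between -0.44 and 0.71. Psma3 (chromosome 12, 70969283 to 70995877, plus strand, GRCm38) had 5 clusters, of which 3 were enriched. Read counts reconstructed from the fold and p put 202 immunoprecipitate reads against 2 input reads under its strongest cluster, a log2 fold of 5.63 (exact Clopper-Pearson 95% interval 3.76 to 8.69) at 1274 nt from the annotated 3′ end. The other enriched clusters had folds of 4.83, from 58 reads against 1 at 644 nt, and 3.93, from 31 against 1 at 701 nt. Its remaining clusters lay farther from the end, at 2352 nt with a fold of -0.02 and at 10555 nt with 1.56. All 3 enriched clusters also lie inside the non-coding locus 3110056K07Rik, which RefSeq places on the other strand, and without clusters inside 2 or more loci the highest fold of Psma3 was 1.56 and it was not enriched.

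The rest of the alpha ring was sparsely covered. Psma1 had 2 clusters near its 3′ end, at 228 and 127 nt, with folds of 0.71 (10 reads against 3, interval -1.24 to 3.21) and 0.30. Psma5 had 2 clusters with a fold of 0.56 each, the value of 3 reads against 1, and Psma4 had 1 with -0.44. Psma2, Psma6 and Psma7 had no cluster.

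The beta ring, which holds the proteolytic sites, had 12 clusters in 4 of its 7 genes with 0 enriched. The limit that a count of 0 allows is 25.0%, above the background of 11.8% of clusters, so this 0 is not set apart from it at this depth. Psmb1 and Psmb2, structural beta subunits, each reached 1.78 from 7 reads against 1 (interval -1.18 to 7.28). The 5 clusters of Psmb1 lay from 108 to 17074 nt from the 3′ end and those of Psmb2 at 22969 and 29934 nt. Psmb7, the trypsin-like subunit, had 4 clusters, between 17220 and 41518 nt from its 3′ end, with folds between -1.02 and 0.56. Psmb3 had 1 cluster with a fold of 0.56. The catalytic genes Psmb5 (chymotrypsin-like) and Psmb6 (caspase-like) and the structural Psmb4 had no cluster.

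Of the immune and tissue-specific core subunits, Psmb10, a catalytic subunit of the immunoproteasome, had 3 clusters with folds between 0.56 and 0.98 and at most 4 reads against 1 where counts were unique. Psmb8 and Psmb9, the other catalytic subunits of the immunoproteasome, had none. Psmb11, known from thymic epithelium, and Psma8, known from testis, had none either. Absence from the list says that too few reads piled up to give a cluster, and cannot tell an RNA that was not bound from one that was scarce in these cells.

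All 4 ATPase genes with a cluster stayed at or below 1.30, a level reached by Psmc1, Psmc3 and Psmc6, each from 5 reads against 1 (interval -1.86 to 6.86). Psmc6 was the ATPase gene with the most clusters: 7 of its 10 had a fold at or below 0, down to -1.76. Among those above 0, the best-covered held 13 reads against 4. Psmc3 had 4 clusters, all in the 5′ part of its locus, with 3 at or below 0. Psmc1 had 3 clusters and its highest lay 104 nt from the 3′ end. Psmc4 had 2 clusters at 0.56. Psmc2 and Psmc5 had none. In all, 0 of 19 ATPase clusters were enriched, and the limit of 15.8% that this count allows also lies above the background of 11.8%.

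Among the non-ATPase subunits of the regulatory particle, the role class with the most genes (11), 4 of the 9 with a cluster were enriched (44.4%, background 34.0%), as were 11 of their 51 clusters (21.6%, background 11.8%). All 11 lay within 5000 nt of the 3′ end, where the class had 26 clusters. Over all protein-coding genes, 12994 of the 37858 clusters within that distance were enriched, so the 11.8% is not a background at like distance. The differences from the background were not tested, and 6 of the 11 clusters were in Psmd11. Psmd11, a lid subunit (chromosome 11, 80428615 to 80473248, plus strand), had the highest fold of any proteasome gene: 6.0 from 130 reads against 1 (interval 3.49 to 11.31), 1008 nt from the 3′ end. Of 9864 protein-coding genes with a cluster, 334 reached a higher fold. Its 6 enriched clusters covered 517 nt between 129 and 1226 nt from the 3′ end, with folds from 3.06 to 6.0. Together they held 430 reads against 14, a pooled log2 fold of 3.92 (interval 3.15 to 4.80). A cluster between them, at 297 nt, had a fold of 3.22 from 19 reads against 1 and did not pass the p threshold. The other 6 clusters of Psmd11, from 2856 to 34884 nt from the end, had folds between -1.02 and 0.98. The change from high to near-input folds thus lay between 1226 and 2856 nt from its 3′ end.

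Psmd3, also a lid subunit (chromosome 11, 98682554 to 98695978, plus strand), had 2 adjoining enriched clusters at 234 and 132 nt from the 3′ end. They had folds of 5.51 (93 reads against 1, interval 3.0 to 10.83) and 5.40 (86 against 1). The cluster just upstream, at 360 nt, had 3.06 from 17 reads against 1 and a −log10 p of 1.96, and the fourth, at 1834 nt, had 0.56. Psmd8, a lid subunit of a compact locus of 6487 nt (chromosome 7, 29174187 to 29180673, minus strand), showed the same arrangement. Its 2 enriched clusters, at 138 and 226 nt, had folds of 3.93 and 4.26 (39 reads against 1, interval 1.70 to 9.60), next to 2.56 at 302 nt and 1.30 at 1274 nt. Psmd7, the lid partner of the deubiquitinase Psmd14 (chromosome 8, 107580380 to 107588482, minus strand), had 2 clusters and both lay in the last 500 nt. One was enriched with 4.11 from 35 reads against 1 (interval 1.53 to 9.45), and the other had 3.22 with a −log10 p of 2.16. The intervals of Psmd11, Psmd3, Psmd8 and Psmd7 overlap, so their order is not resolved.

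The remaining non-ATPase genes were not enriched. Psmd1, a scaffold of the base, had 14 clusters, with 2.44 at its highest from 11 reads against 1 (interval -0.35 to 7.86), 156 nt from the 3′ end. Its other 13 clusters lay between -1.44 and 0.98. Psmd14, the deubiquitinase, had 9 clusters and a highest fold of 1.30, and the cluster nearest its 3′ end, at 182 nt, had 0.98. Psmd4, a ubiquitin receptor, had 3 clusters and reached 1.30. Psmd2, the other large scaffold, had 1 cluster at 0.56, and Psmd13 had 1 at -0.32. Psmd6 and Psmd12 had no cluster.

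Of the activators and the inhibitor, 2 of the 3 with a cluster were enriched, Psme3 and Psmf1 (66.7%, background 34.0%, not tested), and Psme4 fell just short. Psme3 encodes PA28 gamma, the nuclear activator (chromosome 11, 101316213 to 101323537, plus strand). All 8 of its clusters lay between 148 and 1275 nt from the 3′ end, and 6 were enriched, with folds from 3.06 to 5.22 over 549 nt. The highest, 5.22, came from 76 reads against 1 (interval 2.70 to 10.55), and the deepest, 4.25, from 116 against 3 (interval 2.67 to 6.55). The pooled fold of the 6 was 4.01 (393 reads against 12, interval 3.19 to 4.97). The other 2 failed 1 threshold each: 2.71 with a −log10 p of 3.93, and 3.06 with 1.96. Psme3 was the only proteasome gene with at least 3 clusters and none of them below a log2 fold of 2.

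Psmf1 encodes PI31 (chromosome 2, 151716062 to 151744199, minus strand), and it had the enriched cluster farthest from the 3′ end among the proteasome genes. Its enriched cluster, at 2458 nt, had a fold of 4.06 from 34 reads against 1 (interval 1.49 to 9.41). It was followed towards the 3′ end by clusters of 2.44, 2.56, 2.78 and 2.62, the last at 1441 nt, and none was listed nearer to the end than that. The clusters that followed were not enriched, with −log10 p of 0.922, 1.14, 1.54 and 2.47. Psme4, the PA200 activator, is the longest member at 109376 nt and had the most clusters, 33. Its highest fold was 2.95 at 1059 nt from the 3′ end, from 47 reads against 3 (interval 1.31 to 5.27), with a −log10 p of 5.14. It missed the fold threshold alone and was called with the threshold at 2. This cluster also lies inside the locus of Erlec1. Without clusters inside 2 or more loci, whatever the strand of the other locus, the highest fold of Psme4 was 2.15. The other 32 clusters of Psme4 reached at most 2.15, and 14 of the 33 lay at or below 0. Psme1, Psme2 and its copy Psme2b, of the immune-induced PA28 activator, had no cluster.

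Of the 7 assembly chaperone genes, 4 had a cluster and 1, Psmd5, was enriched (25.0% of those with a cluster, background 34.0%, not tested). Psmd5, a chaperone of the regulatory particle (chromosome 2, 34852087 to 34870965, minus strand), had 1 of 6 clusters enriched: 4.30 from 40 reads against 1 (interval 1.74 to 9.64), at 307 nt from the 3′ end. The neighbours on its sides had 2.93 (31 reads against 2, −log10 p of 3.25) and 2.30, and folds were 0.56 to 1.56 beyond 2000 nt. Psmd9, another chaperone of the regulatory particle, reached 2.68 from 13 reads against 1 at 1433 nt, with 4 clusters and none enriched. Psmg3 and Psmg2, chaperones of the core, had 1 cluster each, at 0.98 (4 reads against 1, interval -2.36 to 6.6) and 0.56, too few reads to place them at or above input. Psmg1, Psmg4 and Psmd10, the oncoprotein gankyrin, had no cluster.

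The symbol rule also took in 2 genes whose products are not part of the proteasome. Psme3ip1 (chromosome 8, 94574940 to 94601962, minus strand) had 1 of 9 clusters enriched, with 3.56 from 24 reads against 1 (interval 0.94 to 8.92) at 125 nt from the 3′ end. Its −log10 p of 3.02 was the lowest among the enriched clusters. Psmc3ip, a factor of meiotic recombination, had no cluster. The 6 pseudogenes that carry a matching symbol held no cluster on either strand, and so no cluster was shared with an annotated pseudogene of these names. Other processed copies of proteasome genes that carry other symbols were not analysed here, and reads from such copies cannot be told apart from those of the parent where the sequences are the same.

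In the 9 proteasome genes with an enriched cluster, the enriched clusters lay towards the 3′ end. Of the 30 genes with any cluster, 4 had none within 5000 nt of the 3′ end. The loci of Psmd8, Psme3 and Psmd7 are 6487, 7325 and 8103 nt long, so 5000 nt covers most of each. All 23 enriched clusters were found at most 5000 nt from the annotated 3′ end (Wilson interval of the share 85.7 to 100%), between 125 and 2458 nt and with a median of 611 nt. Of the 142 that were not enriched, 54 did (38%, interval 30.5 to 46.2). Over all protein-coding genes the shares were 91.9% of enriched and 23.5% of other clusters, and the median distance of the enriched ones was 1356 nt. Among proteasome clusters, 10 of 32 in the last 500 nt were enriched (31.2%), 6 of 10 between 500 and 1000 nt (60%), 6 of 16 between 1000 and 2000 nt (37.5%) and 1 of 19 between 2000 and 5000 nt (5.26%). In the same classes, 32.0%, 39.7%, 40.2% and 28.2% of the clusters of all protein-coding genes were enriched. The 6 enriched clusters between 500 and 1000 nt came from Psmd11, Psma3 and Psme3. The 88 clusters beyond 5000 nt, in 16 proteasome genes, had a median fold of 0.56 and a highest of 2.15, and none was enriched. Over all protein-coding genes, 4.6% of clusters from 5000 to 20000 nt and 0.481% of those farther away were enriched. Their median fold was also 0.56 in both classes, so the proteasome clusters are not set apart there. Distances are genomic and include introns, and whether a cluster lay in a 3′ untranslated region was not analysed here.

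**Figure D2:**
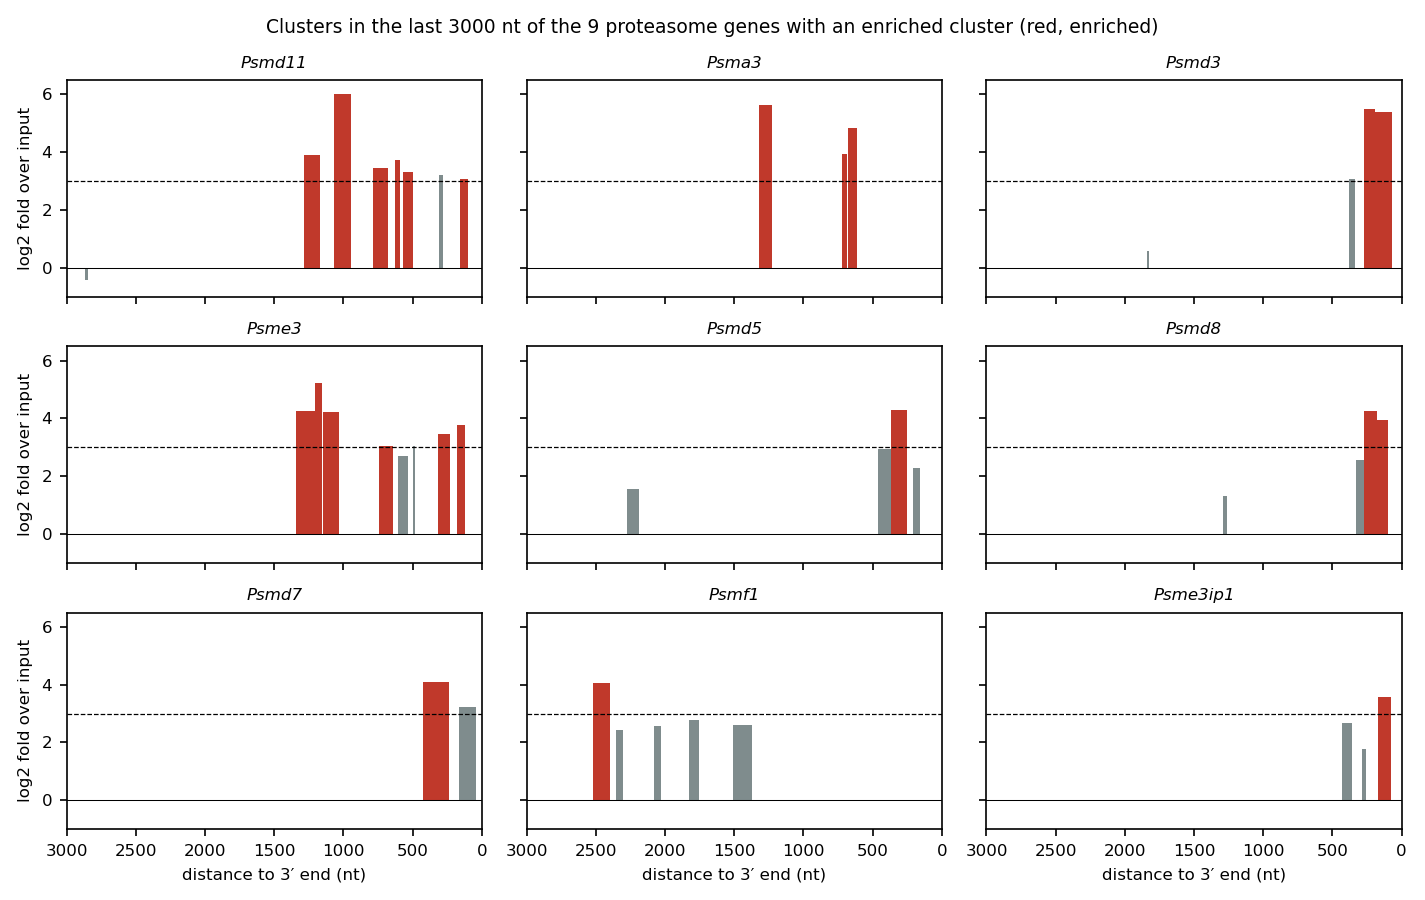
Clusters in the last 3000 nt of the 9 proteasome genes with an enriched cluster; the horizontal axis is the distance to the annotated 3′ end in nt, running 5′ to 3′, bar width is the cluster width, bar height the log2 fold over input, red bars are enriched and the dashed line marks 3. In Psmd11 and Psme3 the enriched clusters spread over 1185 and 1221 nt. In Psmd3, Psmd8 and Psmd7 they sit in the last 500 nt, and the only enriched cluster of Psmf1 lies at 2458 nt.

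**Figure D3:**
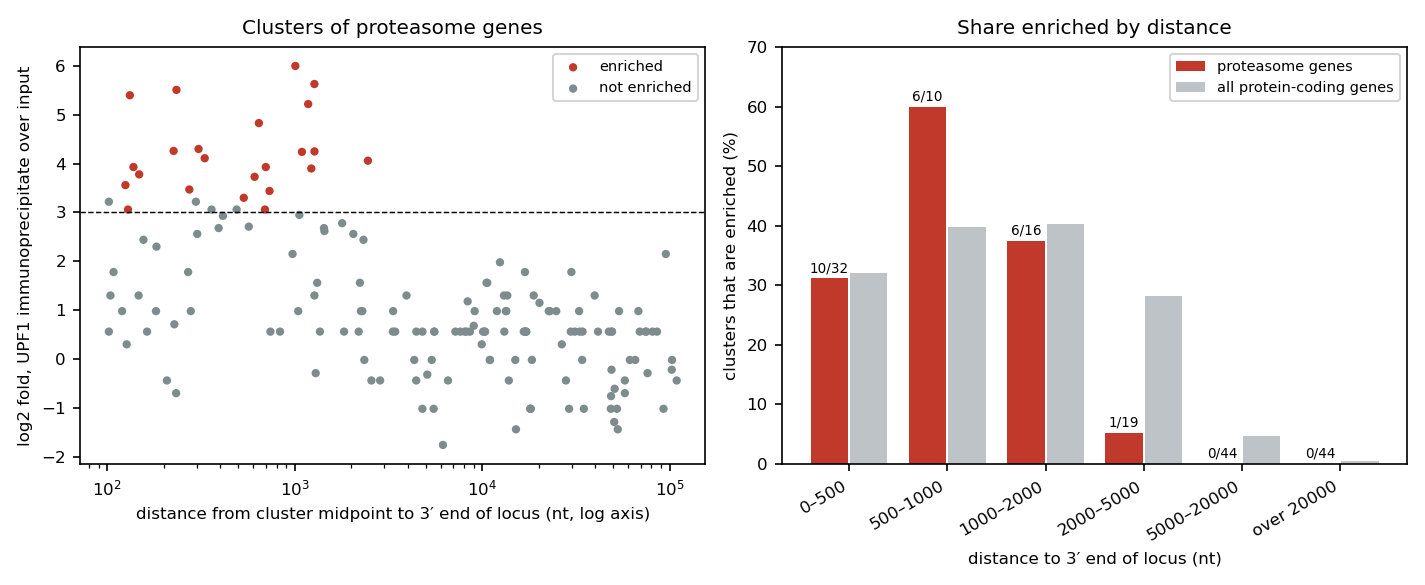
Left, log2 fold of each of the 165 proteasome clusters against its distance to the 3′ end in nt (log axis), with enriched clusters in red. Right, the percent of clusters enriched in each distance class for proteasome genes (red, with counts) and all protein-coding genes (grey). No proteasome cluster beyond 5000 nt was enriched. The shares of all protein-coding genes there were 4.6% (5000 to 20000 nt) and 0.481% (farther).

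At 5′ ends no proteasome cluster was called. In the first 1000 nt, 5 proteasome genes had 6 clusters in all, and none lay in the first 50 nt. Their highest fold was 1.30, in Psmc6, from 5 reads against 1, where at least 24 reads were needed for a call. So few and shallow clusters cannot show a lack of enrichment, and the share at the 5′ ends of all genes was not counted. No cluster of either kind was listed on the opposite strand of any of the 51 loci. For 43 genes the strand came from RefSeq, and for 7 it was that of their own clusters (Psmb1, Psmb2, Psmb7, Psmc3, Psmd3, Psmd7 and Psmg2), so for those 7 the strand could not be checked. Psma8 has no strand in the tables used and no cluster on either. In the 5000 nt beyond the 3′ ends, 2 further clusters were listed on the strand of a member, both inside a neighbouring gene and neither enriched.

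Read depth set which clusters could be called. Against 1 input read, at least 24 immunoprecipitate reads were needed to pass both thresholds, against 2 at least 33, and against 3 at least 49. The 43 proteasome clusters with a fold at or below 0 have no read count, since each has a −log10 p of 0. Of the other 122, 27 had 24 reads or more, and 23 of these were enriched. The 4 others were in Psmd5, Psme3, Psme4 and Psmf1, with folds of 2.93, 2.71, 2.95 and 2.62. The remaining 138 had fewer reads or a fold at or below 0 and could not be called. Enriched clusters held a median of 51 reads (range 24 to 202) against a median of 1 (1 to 4). Of the 21 genes with clusters but none enriched, 19 had a cluster with a fold above 0, and among these Psme4 alone had such a cluster with 24 reads or more. Psma4 and Psmd13 had no cluster that could be counted. Over clusters with a fold above 0, the best-covered one held at most 10 reads in the genes of the alpha and beta rings and the immune core that were not enriched, and at most 13 in the ATPase ring. For those genes lack of a call does not show lack of binding at this depth.

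**Figure D4:**
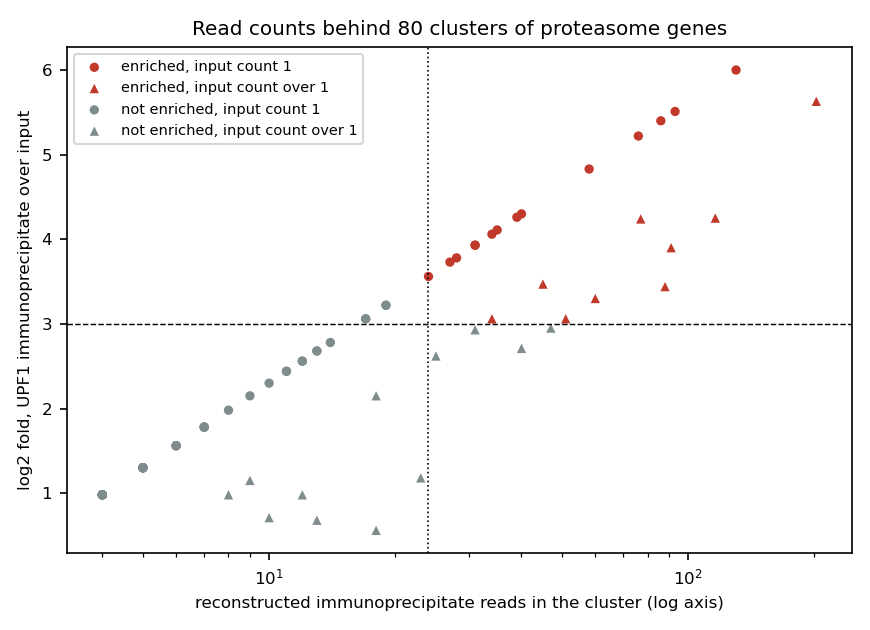
Log2 fold over input against reconstructed immunoprecipitate reads (log axis) for the 80 proteasome clusters whose read counts were unique; circles have an input count of 1, triangles more, red is enriched. The dotted line marks 24 reads, the fewest that could be called, and the dashed line a log2 fold of 3; the 4 grey triangles to the right of the dotted line are those of Psmd5, Psme3, Psme4 and Psmf1.

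Median locus length was 18879 nt for the 9 enriched genes (range 6487 to 44634), 13163 nt for the 21 with clusters but none enriched (2665 to 109376), and 6098 nt for the 21 with no cluster (1066 to 56167). The ranges overlap, the lengths include introns, and RNA abundance was not measured apart from the clusters.

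Proteasome genes, at 30% enriched and a median highest fold of 1.30, were set beside other families that build large complexes. Of 45 genes with a cluster and the symbol stem Eif, taken as translation initiation factor genes, 16 were enriched (35.6%), with a median highest fold of 2.88. The stem alone defined this family, and no gene that shares it was taken out. Of 50 oxidative phosphorylation genes, 10 were (20%), with 0.98. Of 71 genes with a ribosomal protein symbol stem, 4 were (5.63%), with 1.30. Without the S6 kinase genes, Rps19bp1 and Rpl7l1, which share that stem, 1 of 61 was (1.64%), with 0.98. The proteasome share lay between those of the oxidative phosphorylation genes and the initiation factors. The families differ in clusters per gene, 4 at the median for proteasome genes, 6 for initiation factors and 3 for each of the others, and the differences between them were not tested.

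**Figure D5:**
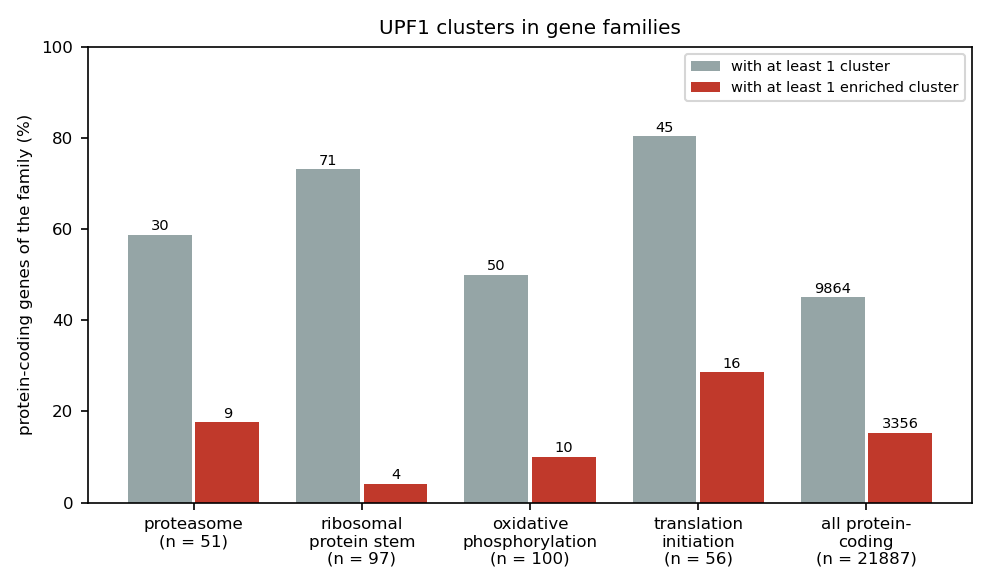
Percent of the protein-coding genes of each family with at least 1 same-strand UPF1 cluster (grey) and with at least 1 enriched cluster (red); numbers above bars are genes and n is the family size. Proteasome genes stand at 58.8% and 17.6%, and all protein-coding genes at 45.1% and 15.3%.

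Genes that work with the proteasome but lack the Psm stem were described from a fixed list, of which 26 are reported. Of the 25 reported with a cluster, 9 had an enriched one (36%, background 34.0%), with a median highest fold of 2.68. Because some genes of the list are not reported, these are not values of the whole list, and nothing is read from them. Nfe2l1, the transcription factor known to raise proteasome genes when proteasome activity falls, had 9 of 13 clusters enriched and reached 5.82 from 115 reads against 1 (interval 3.31 to 11.14), 445 nt from its 3′ end. Its relative Nfe2l2 had 1 cluster at 0.56. Ddi2, the protease that activates Nfe2l1, reached 3.37 from 21 reads against 1 with a −log10 p of 2.59 and was not enriched, and Ngly1, its deglycosylase, reached 1.78. Akirin2, an import factor of nuclear proteasomes, had 1 of 8 clusters enriched with 3.06 (34 reads against 2, interval 1.1 to 6.17).

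Factors that unfold substrates or deliver them to the proteasome were also on that list, and they were not counted as a group. Vcp, the segregase that extracts ubiquitinated proteins, reached 4.73 from 54 reads against 1 (interval 2.19 to 10.06), and its cofactors Nploc4 and Ufd1 reached 5.48 and 5.39, with 5 of 12 and 3 of 14 clusters enriched. The shuttle factors Ubqln1, Rad23b and Ubqln4 reached 5.06, 3.97 and 3.73, while Ubqln2 reached 2.15. Rad23b had the tightest interval of these, 2.71 to 5.61, from 159 reads against 5. Among ligases, Ube3c reached 3.56 with 1 of 23 clusters enriched, and Ube3a had 31 clusters and missed the fold threshold with 2.98 and a −log10 p of 3.47.

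The genes of that list given next were not enriched. The ubiquitin receptor Adrm1 reached 0.98, and the lid subunit Sem1 had 3 clusters and none above 0. The deubiquitinases Usp14 and Uchl5 reached 2.15 and -1.87. Pomp, the maturation factor of the core, had 1 cluster with 1.20 from 14 reads against 3 (interval -0.64 to 3.64), 120 nt from its 3′ end. Ecpas, an adaptor of the 26S particle, reached 3.06 with a −log10 p of 1.96, Zfand5 2.68, Txnl1 1.78 and Fbxo7 1.56. The ubiquitin gene Ubb reached 1.78 and the activating enzyme Uba1 1.30. The ubiquitin fusion gene Rps27a had no cluster. Paaf1 was not analysed here.

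As a check of the labelled cell type, all 11 progenitor markers looked up had a cluster. So did 5 of 5 astrocyte, 4 of 5 neuronal and 3 of 5 oligodendrocyte markers, against 45.1% of all protein-coding genes. None of the 10 markers of microglia, endothelium and fibroblasts had a cluster. Of the progenitor markers, Sox2, Nes, Sox9, Hes5, Msi1, Fabp7 and Slc1a3 had an enriched cluster, and Pax6, Vim, Hes1 and Notch1 did not. Every astrocyte marker had an enriched cluster, so these values do not set progenitors apart from astrocytes. The part of glial cells in the proteasome values was not tested.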

How the data were processed

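UPF1 eCLIP and its input are represented by 1 library each. The authors deposited 1 list of 123349 stranded clusters, without header, with a −log10 p value (capped at 400) and a log2 fold of immunoprecipitate over input per cluster; both units were read from the values. STAR, cutadapt, UMI-tools and the build mm10 appear in the submitters' processing notes. The cluster caller, any filter and the formula of the fold were not given in the sources used here. A −log10 p of 0 stands beside each of the 32999 folds that are not above 0. Library totals are unknown.

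A cluster belonged to a locus (RefSeq, GRCm38.p6, the assembly of mm10) when most of its bases lay in it on the same strand. Strand came from RefSeq's promoter table or, without an entry, from at least 80% of the clusters in the locus; where both existed they matched in 97.0% of 7966 loci. Read counts were reconstructed by taking the commonest fold as 3 reads against 1 (2.03 immunoprecipitate reads per input read) and matching the deposited p with an exact binomial test (a count under 5) or a continuity-corrected chi-square test, within 0.005 or 0.2%. Of 90107 clusters with a fold above 0 and below the cap, 66662 had 1 solution; of 122 proteasome clusters above 0, 80 had 1 and 42 had more than 1, with at most 10 reads. An input count of 1 may stand for no read. On 600 clusters simulated under the same formulas, with 1 to 29 input reads, the reconstruction returned the simulated counts in 600; this does not test the formulas themselves. Intervals are 95% and cover counting error only, except that of the median highest fold, which comes from the ranked gene values. That interval and the Wilson intervals treat genes or clusters as independent. Where a share is 0, its limit is 3 counts over the total. Python 3.11.15, pandas 2.3.3, scipy 1.17.1 and matplotlib 3.10.9 were used. The members, gene lists and thresholds were chosen with earlier results of these data known. Named were every enriched gene, every gene without a cluster, and in each role the highest and lowest of the rest. Some genes of the list of other pathway genes are not reported here, for a reason unrelated to their values. No genome was used, so cluster sequences are not shown.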

Additional observations from a re-analysis of the deposited data

How the results depend on the processing

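Thresholds and low input counts moved the calls. The count of 23 enriched clusters fell to 12 with a log2 fold of at least 4, 15 with a −log10 p of at least 5, and 9 when a single reconstructed input read barred a call. In that last setting 3 of the 9 genes remained enriched: Psma3, Psmd11 and Psme3. Psmd7, Psmf1 and Psme3ip1 were not called at a −log10 p of 5, Psme3ip1 not at a fold of 4, and Psma3 not when clusters inside 2 or more loci were left out (there the highest fold of Psme4 fell to 2.15, against 2.95), while Psme4 was called at a fold of 2. The count of enriched genes was 6 to 10 in the 12 other alternatives. In the 8 alternatives that change which clusters or genes enter (the thresholds and the input count cannot move these values), the median highest fold was 1.30 and the share of clusters within 5000 nt of the 3′ end was 45.2 to 47.4%. Leaving out the 7 genes whose strand came from their own clusters, an alternative chosen after seeing the data, left 7 enriched genes. No called gene value changed sign. Of 382 gene values, 370 kept their side of the call, 11 lost the call and 1 gained it. No paired analysis was possible because there is 1 library of each kind. An input count of 1 lay under 14 of the 23 enriched clusters, where 1 more input read would lower the log2 fold by 1.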
